A study of Mus musculus with 16 samples.

Results

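The expression of 10 genes that encode transcription factors of the naive pluripotent state was examined in 16 mouse pluripotent stem cell lines. The genes were chosen by name and are Klf2, Klf4, Klf5, Esrrb, Tfcp2l1, Tbx3, Zfp42, Prdm14, Nr0b1 and Nr5a2. They are 10 of the 22552 genes in the deposited table, where Tfcp2l1 stands under its older symbol Tcfcp2l1. All 10 were among the 13185 genes tested, for which FPKM (reads of a gene, scaled by its transcript length and the reads of the library) averaged 0.5 or more over the 16 lines.

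Naive pluripotency is the state of the epiblast cells of the blastocyst, and mouse embryonic stem cells hold it in culture through a network of transcription factors that activate each other's genes. Leukemia inhibitory factor (LIF) feeds the network through STAT3, which acts on Klf4 and Tfcp2l1, and Wnt signaling feeds it by relieving the repressor Tcf7l1 from genes such as Esrrb. When cells leave the naive state for the formative and primed states that precede gastrulation, these factors are switched off, while general pluripotency factors such as Pou5f1 and Sox2 stay on for longer.

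RNA was sequenced from ntESCs and iPSCs, called AN and AI, that were derived from adipocyte progenitor cells (APCs) of mice made wholly from iPSCs. AN lines came from blastocysts made by transfer of an APC nucleus into an enucleated oocyte, and AI lines came from APCs treated with doxycycline, which turns on the inserted reprogramming factors. The study called a line fully (F) or partially (P) reprogrammed from tetraploid complementation, an assay of whether cells can form a whole mouse in a tetraploid host embryo. All lines were of strain 129-M2rtTA, carried the same insertions, were kept in medium with serum and LIF, and gave 1 library each. AN F held 4 lines (AN1, AN9, AN15 and AN20, at passage 6 or 7) and AN P held 5 lines (AN2, AN3, AN5, AN6 and AN7, at passage 5 to 7). AI F held 4 lines (AI3, AI7 and AI10 at passage 7, and GS32 at passage 13) and AI P held 3 lines (AI9 at passage 7, GS4 at passage 17 and GS9 at passage 6). A line is 1 derivation, so the line is the replicate, and p-values measure the spread between lines. GS4, GS9 and GS32 were derived before the other lines. For both GS9 and GS32 the title of the record conflicts with its source field, which reads GS4, and the title was followed. Whether the insertions carry Klf4 is not given in the sources used here, and reads of an inserted copy cannot be told apart from those of the gene itself.

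Read counts were not analysed here, so the number of reads behind a value is unknown. The steps between low FPKM values gave a depth relative to AN1 of 0.959 to 1.26 over the 16 lines, and of 1.04 in AN6. Over the tested genes, log2(FPKM + 1) of the AN P line AN6 correlated least with the other lines (mean r = 0.950). The next lines, GS4 and AN20, were at 0.951 and 0.952 and the range ran up to 0.966, so this measure did not set AN6 apart. AN6 was pointed out with earlier results of these data known. Group comparisons and correlations that include AN6 are for that reason also described without it.

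In the mm9 annotation, each of the genes is protein-coding. Klf2 (chr8:74842932-74845555, forward strand), Klf4 (chr4:55540013-55545347, reverse strand) and Klf5 (chr14:99697910-99712624, forward strand) encode Krüppel-like zinc finger factors. Esrrb (chr12:87702067-87862578, forward strand), Nr0b1 (chrX:83437103-83441286, forward strand) and Nr5a2 (chr1:138740161-138857004, reverse strand) encode orphan nuclear receptors. Tfcp2l1 (chr1:120524522-120581744, forward strand) encodes a grainyhead-family factor, and Tbx3 (chr5:120120678-120134733, forward strand) a T-box factor. Zfp42 (chr8:44380422-44392363, reverse strand), also known as Rex1, and Prdm14 (chr1:13103538-13117244, reverse strand) encode zinc finger proteins. The region of Tbx3 overlaps Gm2301 on the opposite strand, and that of Tfcp2l1 holds 2 small RNA genes, and reads shared with them could not be separated.

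All 10 factors were expressed in every line. By the median FPKM over the 16 lines, which is scaled by length and can be compared between genes, Zfp42 was highest at 142. It was followed by Klf4 at 58.1, Klf2 at 56.5, Esrrb at 43.8, Klf5 at 23.2, Nr0b1 at 17.8, Tfcp2l1 at 12.6, Tbx3 at 10.0, Nr5a2 at 8.26 and Prdm14 at 2.20. Zfp42 was above Klf4, Esrrb above Klf5, Klf5 above Nr0b1 and Nr5a2 above Prdm14 in all 16 lines. Klf4 and Klf2 were the neighbours closest to each other, with Klf4 higher in 11 of 16 lines. When the 4 groups were ordered by their mean FPKM for each gene, neighbouring groups overlapped in all 30 of 30 pairs. The share of such overlaps over all genes was not counted, so this is a description and not a trait of these factors.

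**Figure D1:**
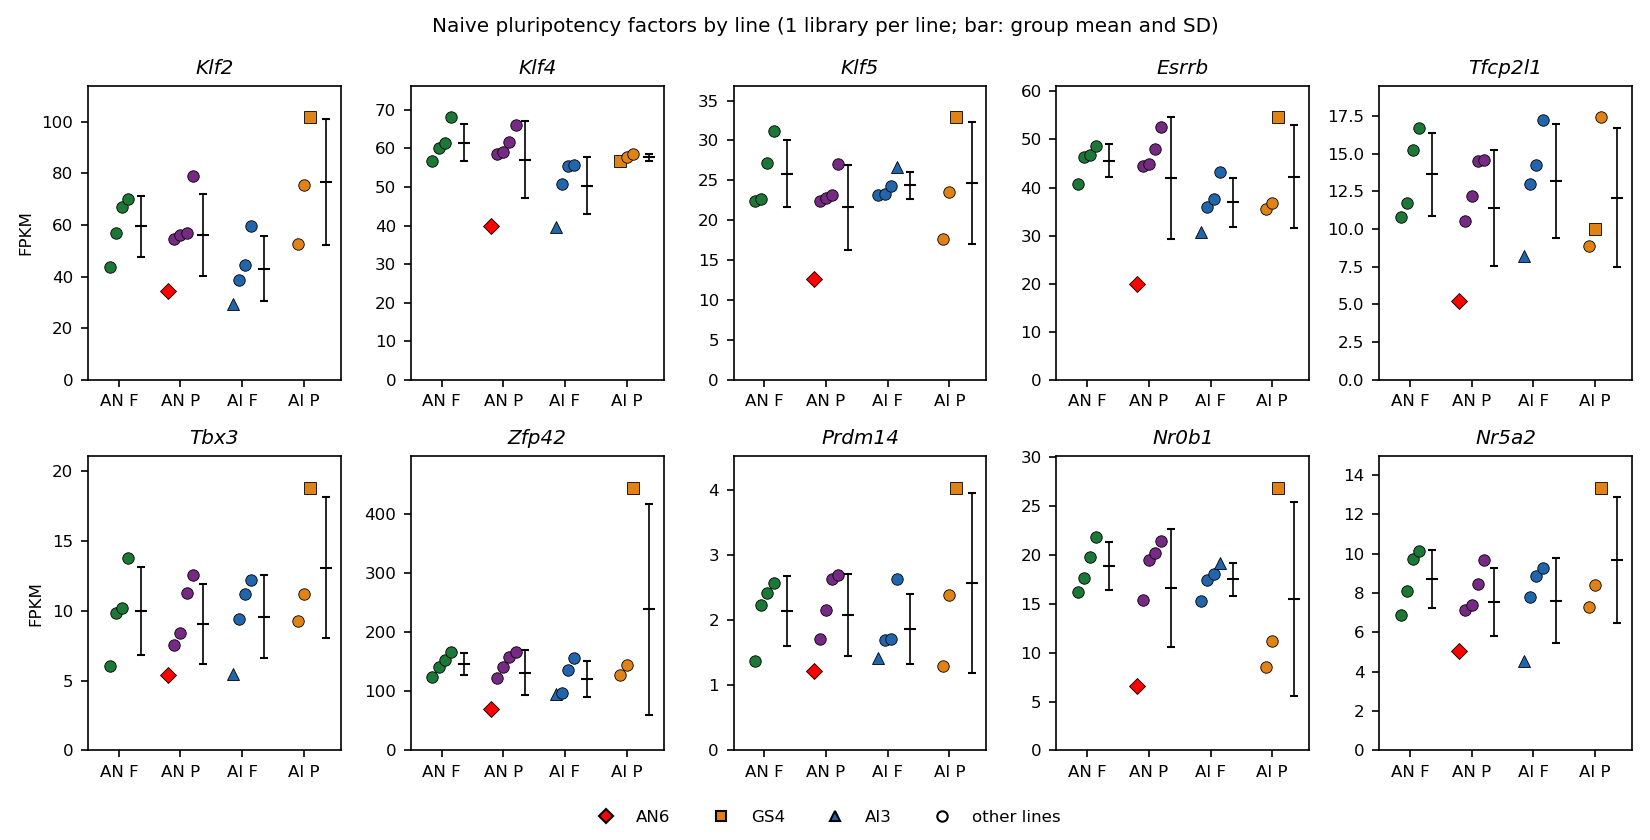
FPKM (vertical axes, starting at 0) of the 10 naive pluripotency factors in the 4 groups of lines. Each point is 1 line, and the bar beside a group is its mean with SD (n = 4, 5, 4 and 3 lines). AN6 (diamond) is the lowest of the 5 AN P points in each panel, and GS4 (square) is the highest of the 16 points in 8 of the panels.

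The question for the AN P lines was which of these genes set AN6 apart. AN6 was the lowest of the 5 AN P lines, and of all 9 AN lines, for each of the 10 factors, and it was the lowest of all 16 lines for 7 of them. AN6 was below the other 4 AN P lines for 32.2% of all genes tested, and it was the lowest of the 16 lines for 13.8%. For 8 of the 10 factors its FPKM + 1 was at least 1.5-fold below the median of the other 4 lines, against 4.34% of all genes. These counts describe 1 line that was pointed out with its values known, and they have no test. The genes that set AN6 apart most were Nr0b1, Tfcp2l1, Esrrb and Zfp42, the 4 factors that were at least 2-fold lower on this scale. The share of all genes at that fold was not counted. In bulk samples such as these, fewer naive cells in the culture and less RNA per cell cannot be told apart.

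Nr0b1, also called Dax1, encodes a receptor without a DNA-binding domain that binds and restrains other factors, and it had the largest difference. Its FPKM was 6.63 in AN6, and 21.4 in AN2, 15.4 in AN3, 20.2 in AN5 and 19.5 in AN7. AN6 thus held 33.5% of the median of the other 4 lines, a difference of -1.45 in log2(FPKM + 1). The gap from AN6 to the nearest of the other lines, AN3, was 1.10 in log2(FPKM + 1), larger than the whole range of those 4 lines (0.45). By the size of this gap below the other 4 lines, Nr0b1 ranked 22 of 13185 genes. In the other groups, Nr0b1 was 17.6 in AN1, 19.8 in AN9, 16.2 in AN15 and 21.9 in AN20 among the AN F lines. FPKM was 19.2 in AI3, 17.5 in AI7, 18.1 in AI10 and 15.3 in GS32 among the AI F lines. The AI P lines were spread widely, with GS4 at 26.8, AI9 at 11.2 and GS9 at 8.53, and of these GS9 came nearest to AN6.

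Esrrb binds many of the same enhancers as Nanog and Pou5f1, and its level separated AN6 from a tight group. FPKM was 20.0 in AN6, and 52.7 in AN2, 44.4 in AN3, 48.1 in AN5 and 44.9 in AN7. AN6 was at 43.1% of the median of the others, with a difference of -1.18 and a gap of 1.11 in log2(FPKM + 1). This gap was the widest among the 10 factors and ranked 19 of 13185 genes, while the other 4 AN P lines spanned 0.24. The AN F lines lay close together as well, at 40.7 in AN1, 46.3 in AN9, 48.7 in AN15 and 46.7 in AN20. The AI lines were lower in part, at 30.8 in AI3, 43.3 in AI7, 35.9 in AI10, 37.7 in GS32, 35.5 in AI9, 54.6 in GS4 and 36.7 in GS9. None of these 15 lines was as low as AN6.

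Tfcp2l1, which LIF induces through STAT3, had the second largest difference. FPKM was 5.23 in AN6, and 14.6 in AN2, 14.5 in AN3, 12.2 in AN5 and 10.5 in AN7, so that AN6 was at 39.1% of their median (a difference of -1.20 in log2(FPKM + 1)). The gap to AN7 was 0.89, and the other 4 lines spanned 0.44. Across the other groups the factor ranged from 10.8 in AN1 to 16.7 in AN20 for AN F, from 8.20 in AI3 to 17.2 in GS32 for AI F, and from 8.89 in GS9 to 17.4 in AI9 for AI P. AI3 was thus the line nearest to AN6, and it was still higher.

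Zfp42 is a marker gene that is lost early when embryonic stem cells leave the naive state. Its FPKM was 70.6 in AN6, and 158 in AN2, 142 in AN3, 123 in AN5 and 166 in AN7. AN6 was at 47.0% of the median of the other lines, with a difference of -1.08 and a gap of 0.79 to AN5 in log2(FPKM + 1). The AN F lines did not reach as low, at 124 in AN1, 153 in AN9, 142 in AN15 and 166 in AN20. In AI F the gene was at 94.9 in AI3, 157 in AI7, 97.4 in AI10 and 136 in GS32. In AI P it was at 127 in AI9, 145 in GS9 and 445 in GS4, and the GS4 value was the highest of all 16 lines.

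The other 6 factors were lower in AN6 by a smaller amount. Klf5, at 12.7 in AN6 and 22.5 to 27.1 in the other 4 AN P lines, differed by -0.81 in log2(FPKM + 1) and was the fifth of the factors whose gap was among the 100 widest of all genes. Klf2 was at 34.3 in AN6 against 54.5 to 78.7 (-0.70), and Klf4 at 40.0 against 58.5 to 66.0 (-0.58). For these 2 Krüppel-like factors the lowest of the 16 lines was the AI F line AI3, at 29.4 for Klf2 and 39.6 for Klf4. Tbx3, which supports Nanog expression, was at 5.41 against 7.53 to 12.6 (-0.75). Nr5a2, a receptor that can bind the Pou5f1 promoter, was at 5.07 against 7.14 to 9.67 (-0.55), with AI3 again lower at 4.53. Prdm14, which represses FGF signaling genes and DNA methyltransferases in embryonic stem cells, was at 1.21 against 1.72 to 2.70 (-0.61). The log2(FPKM + 1) scale understates the difference of so low a gene. In plain FPKM, AN6 was at 50.7% of the median of the other 4 lines for Prdm14. This was the lowest share of these 6 factors, followed by 55.0% for Tbx3 and 55.3% for Klf5. Tbx3 and Prdm14 were the only 2 of the 10 factors for which the gap to AN6 was not wider than the whole range of the other 4 AN P lines. How many of all genes had so wide a gap was not counted. The mean log2(FPKM + 1) over the 10 factors was 3.68 in AN6 and between 4.50 and 4.67 in the other AN P lines.

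**Figure D2:**
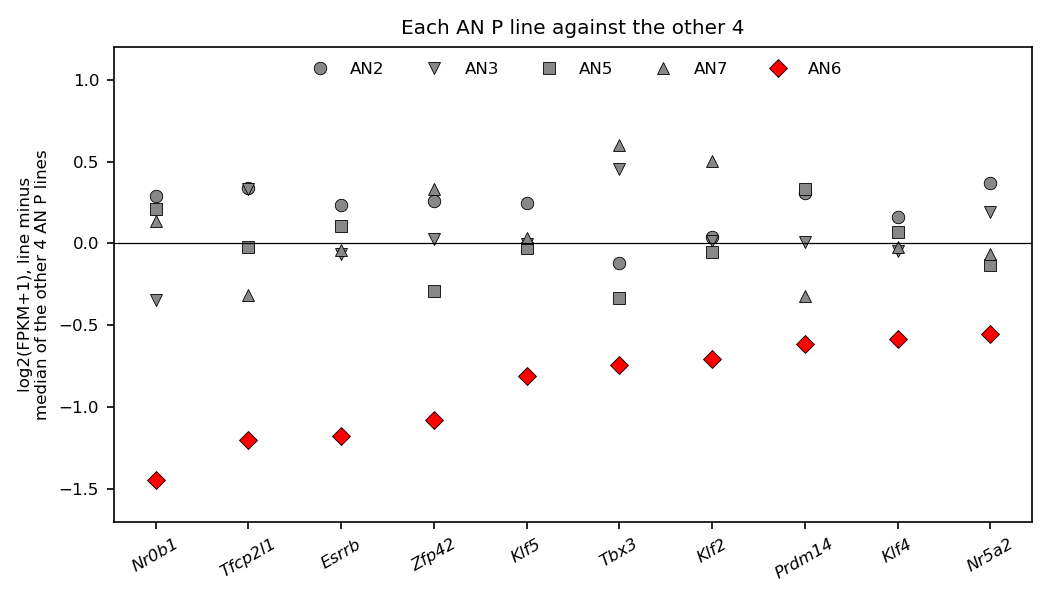
Difference in log2(FPKM + 1) between each AN P line and the median of the other 4 AN P lines (vertical axis) for the 10 factors, ordered by the AN6 value. Each point is 1 line, the red diamonds are AN6 at -1.45 to -0.55, and the 40 gray points of AN2, AN3, AN5 and AN7 lie between -0.35 and 0.60.

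No other line was low or high for all 10 factors. The AN F line AN1 was below the other 3 AN F lines for 9 of them, against 25.7% of all genes, with a mean log2(FPKM + 1) of 4.31 over the factors. The AI F line AI3 was below the other 3 AI F lines for 8 factors, against 20.8% of all genes, with a mean of 4.06, but it was above them for the remaining 2, Klf5 and Nr0b1. GS4, at a mean of 5.09, was the highest of the 16 lines for 8 factors, against 14.7% of all genes. Its FPKM + 1 was at least 1.5-fold above the median of the other 2 AI P lines for 7 of them, against 6.91% of all genes. Klf4 was one of the exceptions, with GS4 at 56.8 below AI9 and GS9, and Tfcp2l1 the other, at 9.99 in GS4 against 17.4 in AI9.

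The factors varied together across lines, and AN6 held part of this pattern. Over the 16 lines, the 45 pairs of factors had a median Pearson r of 0.61 in log2(FPKM + 1), with 35 pairs above 0.5. Klf5 and Nr0b1 were the pair with the highest value, at 0.86. Without AN6 the median was 0.45 and 20 pairs were above 0.5, while 5 were below 0. Klf2 and Zfp42 then had the highest r, at 0.83, and still had the highest, at 0.88, when GS4 was left out as well. These correlations are descriptions over 16, 15 or 14 lines that share libraries across genes.

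Since the factors varied together, the sequences before their starts were searched for sites of the factors' own families, of Pou5f1 and of STAT factors. Promoter windows from RefSeq (GRCm38.p6), of 250 bases before and 50 bases after a gene's start, were at hand for 7 of the 10 genes, in 9 windows. On both strands, 4 genes (Klf4, Zfp42, Klf2 and Esrrb) held CACACCC or GGGCGGG, the letters bound by Krüppel-like and Sp factors. Of all 32851 windows, 31.3% held either of them. That share is per window while the genes are counted once each, and Esrrb and Nr5a2 have more than 1 window. The 2 figures are thus not in the same unit. The octamer ATGCAAAT, bound by Pou5f1, was in the Zfp42 window and in 1.74% of all windows. AAGGTCA, bound by Esrrb and Nr5a2, and TTCCNGGAA, bound by STAT factors, were in 0 of the 7 genes' windows and in 4.72% and 1.15% of all windows. The 250 bases before the start are shown for these 4 genes, 5′ to 3′ on the strand of the gene, because they hold these matches, which are in capitals. A match describes letters and not a bound site. In Zfp42 the octamer comes first as its reverse complement. GGGCGGG follows 2 times in reverse, the last sharing 1 base with CACACCC. In Klf4, 3 of 4 matches to GGGCGGG are in reverse, and the first 2 overlap. Klf2 has 2 matches to GGGCGGG, and Esrrb has 1 to CACACCC.
Zfp42, chr8:43307010-43307259, reverse strand: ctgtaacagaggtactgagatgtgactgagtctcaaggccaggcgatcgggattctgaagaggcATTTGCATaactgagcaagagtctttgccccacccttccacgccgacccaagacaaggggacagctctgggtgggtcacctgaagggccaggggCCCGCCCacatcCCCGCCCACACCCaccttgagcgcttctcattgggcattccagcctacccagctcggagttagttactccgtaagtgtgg
Klf4, chr4:55532476-55532725, reverse strand: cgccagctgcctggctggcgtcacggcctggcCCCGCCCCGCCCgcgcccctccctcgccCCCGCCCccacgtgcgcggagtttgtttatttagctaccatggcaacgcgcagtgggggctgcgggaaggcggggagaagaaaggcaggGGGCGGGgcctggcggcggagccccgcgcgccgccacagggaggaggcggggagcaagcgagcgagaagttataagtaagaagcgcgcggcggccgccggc
Klf2, chr8:72318812-72319061, forward strand: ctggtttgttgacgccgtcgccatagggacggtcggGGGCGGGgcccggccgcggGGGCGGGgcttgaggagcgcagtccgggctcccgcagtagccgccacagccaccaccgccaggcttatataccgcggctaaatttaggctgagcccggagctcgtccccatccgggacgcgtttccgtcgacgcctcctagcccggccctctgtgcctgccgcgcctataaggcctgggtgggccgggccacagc
Esrrb, chr12:86360867-86361116, forward strand: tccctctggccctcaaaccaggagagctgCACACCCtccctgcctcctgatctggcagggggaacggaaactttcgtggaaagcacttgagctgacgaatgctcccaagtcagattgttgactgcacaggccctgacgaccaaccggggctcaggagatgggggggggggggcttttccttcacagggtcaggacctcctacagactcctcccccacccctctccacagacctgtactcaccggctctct

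AN F was compared with AN P to ask whether the naive factors differed with the reprogramming state of ntESCs. In limma's test, 0 of the 10 factors and 0 of all genes (0%) had an adjusted p under 0.05. The study used another test, Cuffdiff, and reported genes higher in fully than in partially reprogrammed lines, for AN and for AI. The counts of genes here hold for limma on log2(FPKM + 1) only. At an unadjusted p under 0.05, 0 factors passed, against 792 genes, or 6.01%, of all. The groups overlapped for each of the 10 factors, and they did not overlap for 1.3% of all genes. Each factor had a higher mean log2(FPKM + 1) in AN F, and the differences ranged from 0.038 for Prdm14 to 0.29 for Tfcp2l1, with a median of 0.19, against -0.015 over all genes. For Esrrb the difference was 0.18 (SE 0.25, 95% confidence interval -0.37 to 0.74, adjusted p = 0.781, limma), and the AN F lines averaged 45.6 ± 3.43 FPKM (SD, n = 4), against 42.0 ± 12.7 (SD, n = 5) for AN P. For Nr0b1 it was 0.26 (SE 0.29, 95% confidence interval -0.40 to 0.92, adjusted p = 0.737, limma). The exact two-sided permutation p over the 126 splits of the lines was between 0.333 and 0.889 for the 10 factors, where 0.0159 is the smallest possible.

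These differences rested on AN6. It was the lowest AN line for each factor, so leaving it out had to raise each AN P mean. The values and p-values without it are therefore a description, here and in the other group comparisons. Without it, the median over the factors was -0.012, 4 factors were higher in AN F and 6 were lower, and the values lay between -0.075 for Prdm14 and 0.10 for Klf5. Esrrb then differed by -0.057, with a 95% confidence interval of -0.24 to 0.13 in place of -0.37 to 0.74. The interval of Klf4 narrowed to -0.16 to 0.17 and that of Nr0b1 to -0.30 to 0.27. With AN6 left out, the exact two-sided permutation p was between 0.543 and 0.971 for the 10 factors, with 0.0286 the smallest that 70 splits allow. Leaving out 1 other AN line at a time kept the median above 0, from 0.13 without AN20 to 0.28 without AN1. AN1 was the lowest AN F line for 9 factors, and without it 10 of 10 were higher in AN F.

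AI F was compared with AI P in the same way for iPSCs. In limma's test, 0 of the 10 factors and 0 of all genes (0%) had an adjusted p under 0.05. Of the 10 factors, 7 had a lower mean in AI F, and the median difference was -0.23 in log2(FPKM + 1), against -0.040 over all genes. Without GS4, 5 factors had a lower mean and the median was -0.027, and without AI3 the median was -0.10. It was larger without AI9, at -0.38, with 7 factors lower. At an unadjusted p under 0.05, 1 factor, Klf2, passed, against 1025 genes, or 7.77%, of all. Klf2, which acts with Klf4 and Klf5 in the naive network, was at 29.4 in AI3, 59.7 in AI7, 38.8 in AI10 and 44.4 in GS32. GS4 was at 101.6, GS9 at 75.6 and AI9 at 52.5. The groups overlapped, since AI7 was above AI9. The difference was -0.81 (SE 0.29, 95% confidence interval -1.48 to -0.14, adjusted p = 0.521, limma), and the exact two-sided permutation p was 0.114. Within the lines derived earlier, GS32 was below GS4 and GS9, and within the newly derived lines AI9 fell between AI10 and AI7. When the fit also held the derivation, Klf2 differed by -0.64 (adjusted p = 0.917, limma). Klf2 differed by -1.05 without AI9 (adjusted p = 0.132, limma) and by -0.58 without GS4 (adjusted p = 0.633, limma).

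Klf4 was the 1 factor whose AI groups did not overlap, against 4.88% of all genes. It was at 39.6 in AI3, 55.4 in AI7, 50.8 in AI10 and 55.7 in GS32, while GS9 was at 58.5, AI9 at 57.7 and GS4 at 56.8. The AI P lines lay within 1.67 FPKM of each other, and the highest AI F line was 1.13 FPKM below the lowest of them. The exact two-sided permutation p of 0.0571 is the smallest that 4 lines against 3 allow, and the difference of -0.20 in log2(FPKM + 1) did not pass limma's test (adjusted p = 0.530). Without AI3 it was -0.096. Zfp42 differed by -0.76 (SE 0.44, 95% confidence interval -1.79 to 0.26, adjusted p = 0.521, limma), and this size rested on GS4. Without GS4 it was -0.19, and the differences in Esrrb and Prdm14 changed from -0.17 and -0.26 to 0.021 and 0.022. The difference in Nr0b1 was 0.32 (adjusted p = 0.653, limma) and rested on the AI P lines present, since it was 0.78 without GS4 and 0.0037 without GS9. Markers of fibroblasts and feeder cells also varied between these lines. The mean log2(FPKM + 1) of 15 such genes was 5.51 in AI3, 4.79 in AI7, 5.69 in AI10 and 5.97 in GS32, and it was 5.54 in AI9, 4.41 in GS4 and 3.94 in GS9. The 2 AI P lines with the highest Klf2 were thus the lowest of the 7 for these markers, whose part in the differences was not tested.

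The difference between the AI and the AN effect was tested as an interaction. At an adjusted p under 0.05, 0 factors and 0 genes (0%) passed (limma). At an unadjusted p under 0.05, Klf2 was the 1 factor that passed, against 2194 genes, or 16.6%, of all, with a difference of -0.92 (SE 0.37, adjusted p = 0.290, limma). The count of 0 genes depended on AI9, since 651 genes passed the adjusted threshold without it, 0 of them factors. Zfp42 had the largest difference of the 10 factors, at -0.96, with a wider error (SE 0.49, adjusted p = 0.320, limma), and without GS4 it was -0.39. Without AN6 the difference was -0.75 for both Klf2 and Zfp42 (adjusted p = 0.347 and 0.401, limma). AN lines were also compared with AI lines, averaged over F and P. In limma's test, 0 factors and 0 genes (0%) had an adjusted p under 0.05, and 0 factors passed unadjusted, against 464 genes, or 3.52%, of all. The differences lay between -0.21 for Tbx3 and 0.13 for Klf4, with an adjusted p of 0.999 for each factor. Esrrb differed by 0.13 with a 95% confidence interval of -0.23 to 0.49, and Klf4 by 0.13 with an interval of -0.085 to 0.34. Without AN6 these differences were 0.25 for Esrrb and 0.19 for Klf4, that of Nr0b1 was 0.27 in place of 0.13, and 8 of 10 factors had a difference above 0, in place of 4 (adjusted p = 0.999 for each, limma). Nuclear transfer and doxycycline-induced lines therefore did not differ detectably in these factors, with intervals that span up to 0.71 in log2(FPKM + 1) below and 0.63 above 0.

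**Figure D3:**
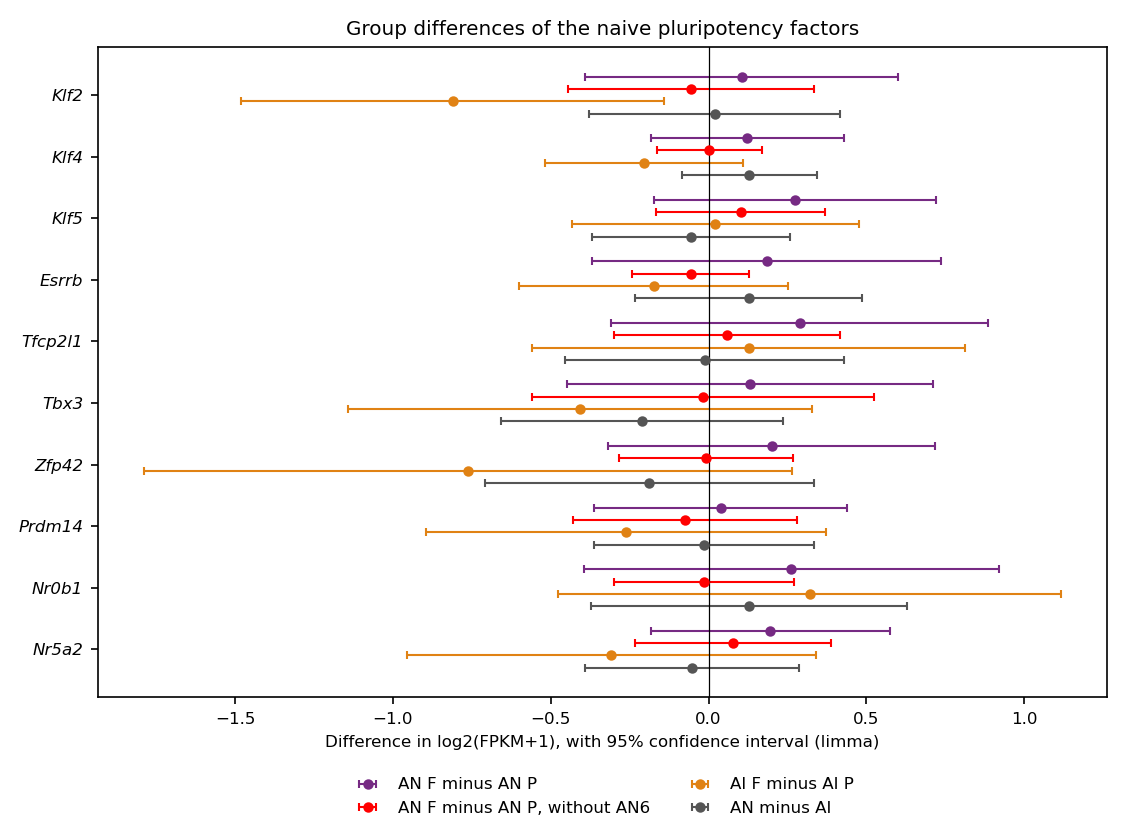
Differences in log2(FPKM + 1) for the 10 factors (horizontal axis) with 95% confidence intervals from limma, for AN F minus AN P with all lines and without AN6, AI F minus AI P, and AN minus AI. The interval of Klf2 in AI, -1.48 to -0.14, is the 1 interval that leaves out 0, and the intervals of AN F minus AN P narrow when AN6 is left out.

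Other gene groups were counted in AN6 in the same way, as differences from the median of the other 4 AN P lines and with no test. The lists were chosen with earlier results of these data known. Examples outside the 3 most highly expressed genes of a list were picked after their values were seen. Naive-state genes outside the set were low as well. Of 10 such genes (Dppa3, Dppa5a, Fgf4, Gbx2, Tcl1, Fbxo15, Pecam1, Tet2, Manba and Zfp57), 10 of 10 were below the other 4 lines, against the 32.2% of all genes given above, and 8 were at least 1.5-fold lower, with a median of -0.92. Fgf4, which encodes the ligand that drives exit from the naive state, was at 7.39 in AN6 and 19.9 to 27.5 in the other 4 lines. Tet2, an enzyme that oxidizes 5-methylcytosine, was at 2.30 against 5.51 to 7.32. The 3 most highly expressed genes of the list were Dppa5a, at 897 against 1147 to 1523, Zfp57, at 51.3 against 74.2 to 89.8, and Fbxo15, at 39.5 against 72.7 to 92.0. Across lines, the mean of this list followed that of the 10 factors with r = 0.90 over 16 lines and 0.84 without AN6. Manba and Tet2 of this list were also among the 10 genes most like that mean in these lines (r = 0.91 and 0.87). The list is thus no independent support for the pattern of the factors.

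The 8 core pluripotency genes were lower less evenly, with a median of -0.40 and 6 of 8 below the other lines. For this and the next counts, AN6 was below the other 4 AN P lines for 32.2% of all genes and above them for 32.4%. Pou5f1, which encodes Oct4, was at 657 in AN6 against 771 to 903, and Sox2 was at 152.7 against 187 to 241. Lin28a, which encodes an RNA-binding protein, was at 226 against 258 to 302. Nanog, at 79.4 against 78.1 to 98.0, and Tdgf1, at 656 against 525 to 672, lay inside the range of the other AN P lines. Sall4 was the lowest of these genes relative to the other lines, at 16.1 against 26.7 to 36.6 (-1.08). In the LIF and STAT3 pathway, 7 of 10 genes were below the other 4 lines and 1 was above, with a median of -0.12. Its receptor gene Lifr was at 2.13 against 3.40 to 4.54 and Stat3 at 17.9 against 22.4 to 22.6, while Socs3, a direct target of STAT3, lay inside the range at 22.5. Grb2, Pim1 and Ptpn11, the most highly expressed genes of this list, were at 50.3 against 52.3 to 55.7, at 37.9 against 41.3 to 43.6 and at 32.0 against 30.6 to 35.1. In the Wnt pathway, 4 of 11 genes were below and 4 were above, near the shares of all genes, with a median of 0.035. The Wnt target Axin2 was higher in AN6, at 9.67 against 4.46 to 6.27. Ctnnb1 (260 against 233 to 261), Gsk3a (56.4 against 53.0 to 57.9) and Tcf7l1 (40.5 against 38.8 to 59.0), its most highly expressed genes, lay inside the range of the other lines. Of 8 FGF-ERK genes, 5 were below and 3 above, and the immediate early gene Egr1 was at 162 against 81.5 to 129. Etv5, a target of ERK signaling, was at 81.6 against 98.4 to 132, and Spry2, a feedback inhibitor, at 76.3 against 79.4 to 91.1.

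Genes of the primitive streak, where mesoderm forms at gastrulation, lay on the other side of the remaining AN P lines from the naive factors. Of 8 genes 7 were tested, and 7 of 7 were above the other 4 AN P lines and at least 1.5-fold higher, with a median of 1.75. AN6 was above the other 4 lines for 32.4% of all genes, and at least 1.5-fold higher than their median for 6.2%. T, which encodes Brachyury, was at 257 in AN6 and 16.2 to 82.5 in the other 4 lines. Wnt3, a signal needed to form the streak, was at 10.8 against 1.99 to 4.81, and Eomes at 16.2 against 3.54 to 8.13. The genes of the formative and primed epiblast were mixed, with 6 of 13 below and 3 above, against 32.2% and 32.4% of all genes. Fgf5, the usual primed marker, was at 31.2 against 7.22 to 16.6, and Cldn6 at 247.5 against 52.8 to 89.3. Dnmt3a and Dnmt3b, the de novo DNA methyltransferases, were lower, at 12.2 against 20.0 to 37.6 and at 109 against 145 to 207. Otx2, at 14.0, and Pim2, at 128 against 73.5 to 137, lay inside the range.

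Markers of other cell types were counted beside these, where the shares of all genes were again 32.2% below and 32.4% above. Of 9 trophoblast genes 5 were tested, and 4 were above the other AN P lines with a list median of 1.64. The keratin genes Krt8 and Krt18, which simple epithelia express as well, were at 662 against 45.7 to 133 and at 469 against 33.4 to 83.9. Among the defining trophoblast genes, Cdx2 was at 4.75 against 0.739 to 3.72, Gata3 lay inside the range at 0.625, and Elf5 was at 0.0791 and under the filter. Hand1, also in the list, was at 1.67 against 0.398 to 0.891. The 15 fibroblast and feeder cell genes, which would mark the feeder layer, had a median of -0.20, with 8 below and 2 above, and their mean log2(FPKM + 1) was 5.12 in AN6 against 4.97 to 5.76 in the other AN P lines. Among the 3 most abundant of them, Tagln was at 866 against 357 to 699, Acta2 lay inside the range at 394 and Fn1 was at 261 against 262 to 495. Of 13 primitive endoderm genes 8 were tested, with 3 below, 1 above and a median of 0.016. Sparc, at 572, and Lamb1, at 47.3, lay inside the range while Col4a1 was at 37.7 against 38.8 to 67.3. Under the filter, Sox17 was at 1.13 against 0.106 to 0.552, and Sox7 at 0.333 against 0.340 to 0.468. Of 7 neural genes 5 were tested, with 4 below and a median of -0.79. Nes lay inside the range at 44.5, Tubb3 was at 17.3 against 28.0 to 42.0, and Pax6 at 2.07 against 3.89 to 8.77. Of 8 genes of the 2-cell-like state 3 were tested, Zscan4c, Zscan4d and Zscan4f, and AN6 was inside the range for each, at 0.454, 0.329 and 0.362. The part of other cell types in the values of AN6 was not tested.

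**Figure D4:**
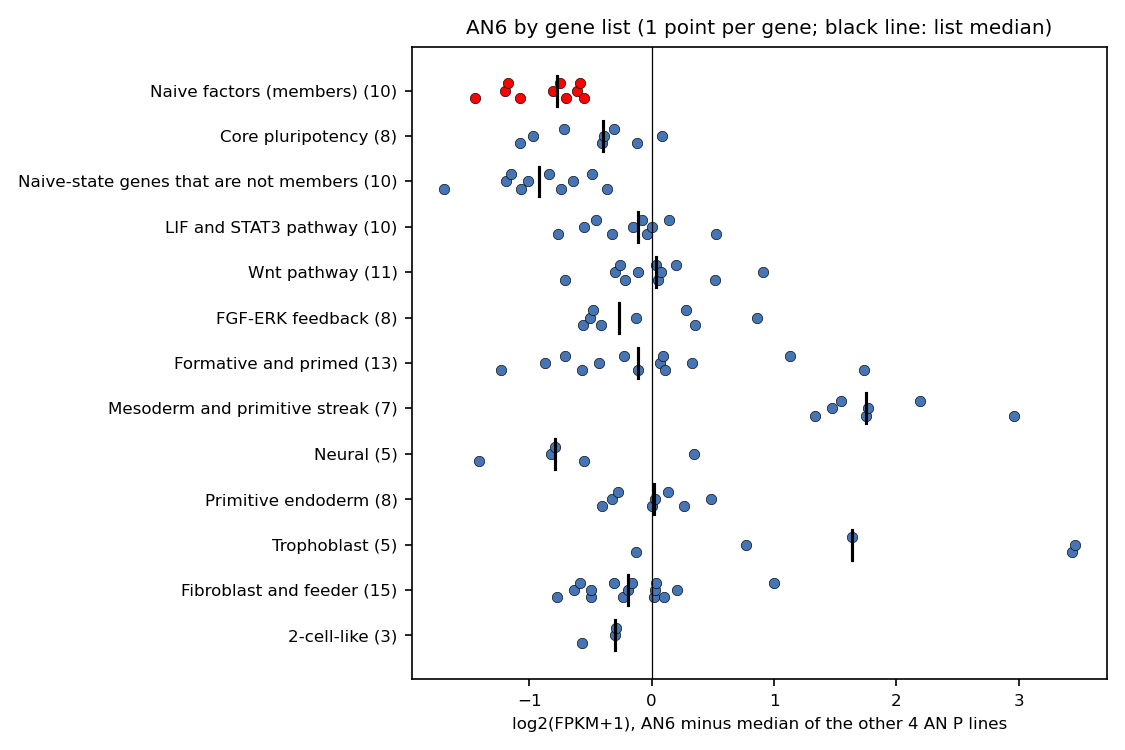
Difference in log2(FPKM + 1) between AN6 and the median of the other 4 AN P lines (horizontal axis) for each tested gene of the 10 naive factors (red) and 12 other lists (blue), with the number of genes in parentheses and a black line at each list's median. The naive factors (median -0.78) and other naive-state genes (-0.92) lie below 0, and the primitive streak genes (1.75) lie above it.

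High primitive streak expression and low naive factors did not always come in the same line. The mean log2(FPKM + 1) of the 7 streak genes was 3.81 in AN6 and 1.51 to 2.75 in the other AN P lines, but it was 3.62 in the AI F line AI10, whose mean over the 10 factors was 4.34. AI3, with the second lowest mean over the factors, had a streak mean of 1.27, and GS4, with the highest, had the lowest streak mean, 1.15. Over 16 lines the 2 means had r = -0.51, and without AN6 r = -0.24. The core pluripotency mean had r = 0.72 with the factors, and 0.55 without AN6. Zscan4 genes had r = 0.71, and 0.81 without AN6, with their highest mean in GS4, at 3.14. Leaving out GS4 as well gave r = 0.66 for the Zscan4 genes, 0.73 for the other naive-state genes, 0.28 for the core pluripotency genes and 0.030 for the streak genes. Of the 102 genes tested in these lists, 0 passed limma's test at an adjusted p under 0.05 in any of the 4 comparisons between groups. At an unadjusted p under 0.05, 0 passed for AN F against AN P, where 6.01% of all genes did. For AI F against AI P 6 passed, against 7.77% of all genes, and for AN against AI 1 passed, against 3.52%. For the interaction 25 passed, against 16.6% of all genes. Of these 25, 10 were fibroblast and feeder genes and 7 were primitive endoderm genes.

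**Figure D5:**
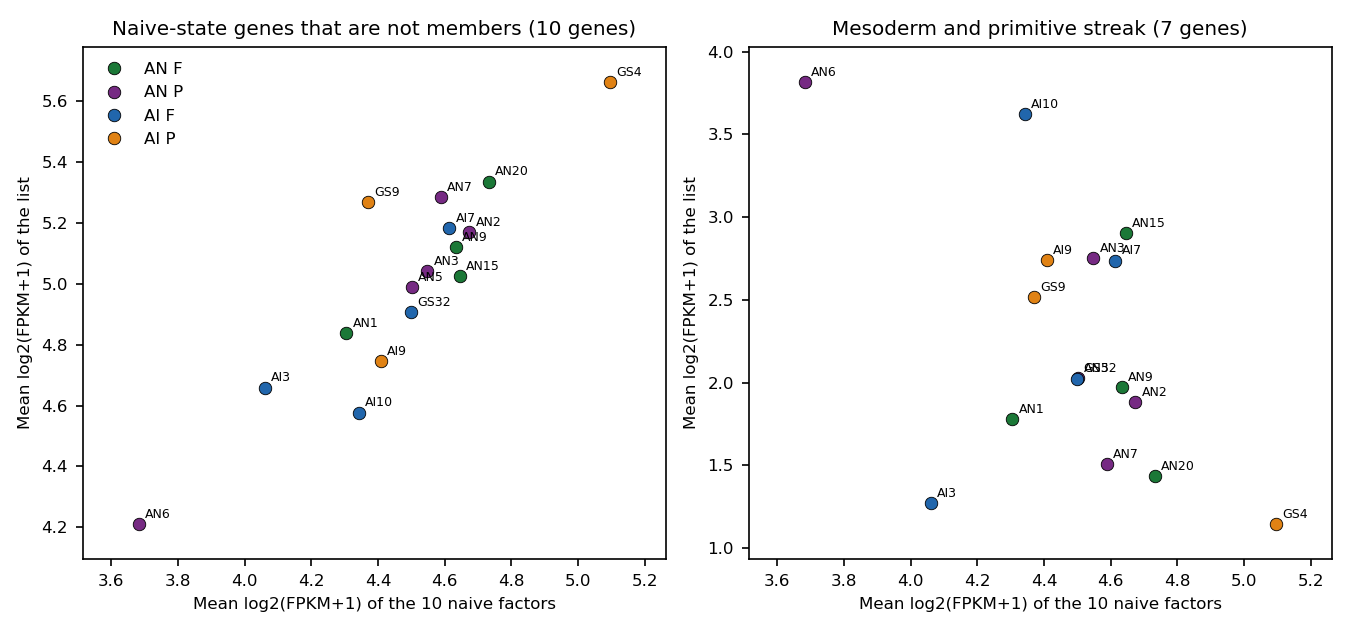
Mean log2(FPKM + 1) of the 10 naive factors (horizontal axes) against that of 10 other naive-state genes (left) and of 7 primitive streak genes (right), with 1 point per line colored by group. AN6 is at the lowest factor mean in both panels (3.68), next to the highest streak mean (3.81), while AI10 has a streak mean of 3.62 at a factor mean of 4.34.

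Among the 8417 other genes that averaged 5 FPKM or more, the pattern most like the mean of the 10 factors over the 16 lines was that of Myst4, a histone acetyltransferase gene, with r = 0.95 and 0.91 without AN6. It was followed by Mreg (0.92), Manba (0.91), Parp1 (0.90), Cobl (0.89), Wdr82 (0.88), Lars (0.87), Itpk1 (0.87), Tet2 (0.87) and Cdyl2 (0.86), which kept an r of 0.73 to 0.88 without AN6. The most opposite patterns were those of Cldn7, a tight junction gene (-0.87), Acadl (-0.86), Pdlim7 (-0.85), Ssbp3 (-0.84), Carhsp1 (-0.84), Clic1 (-0.84), Tubb6 (-0.84), Stard10 (-0.83), Ube2r2 (-0.83) and Agpat4 (-0.82). Without AN6 their r was between -0.82 and -0.67. Myst4 was at 11.4 in AN6 against 19.4 to 22.8 in the other AN P lines, and Cldn7 at 88.7 against 21.5 to 40.4. These genes were picked as the extremes of many correlations over lines that share libraries.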

How the data were processed

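Expression was deposited as FPKM, with 1 value for each gene in each line. Per the labels and the study's methods, the authors sequenced single-end reads, mapped them to mm9 with TopHat2 2.1.0 and calculated FPKM with Cufflinks 2.2.1, and the notes also name HTSeq. The library normalization and the strand setting are not given in the sources used here.

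FPKM values were used as log2(FPKM + 1), a scale that understates the change of low genes such as Prdm14. Of 22552 genes, the 13185 that averaged 0.5 FPKM or more over 16 lines were tested with limma 3.58.1 (R 4.3.3, mean-variance trend, Benjamini-Hochberg adjustment over all genes, threshold 0.05). AN F against AN P used the 9 AN lines, AI F against AI P the 7 AI lines, and the other comparisons all 16 lines. The fit was tested on simulated data. Each factor was also compared by exact two-sided permutation tests (scipy 1.17.1). All 10 factors are named, with the 10 genes most like and most unlike their mean. Of each other list the 3 most highly expressed genes are named, with further examples picked after their values were seen. The factors, the line AN6 and the lists were chosen with earlier results of these data known. The alternatives were another pseudocount, filter, scaling or fit, and leaving out each line. Gene positions are from the mm9 annotation (gencode) and promoter windows from RefSeq.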

Additional observations from a re-analysis of the deposited data

Results flagged for a closer look

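In AN P, 4 values lay far from the rest of their group, and all 4 were the lowest value of AN6. A value was flagged there when its gap to the nearest line was over 0.71 of the range of the group (Dixon's ratio). Klf4 had an FPKM of 40.0 in AN6, and the other 4 AN P lines lay between 58.5 and 66.0. Esrrb was at 20.0, and the others between 44.4 and 52.7. The mean log2(FPKM + 1) of the 10 naive factors was 3.68, against 4.50 to 4.67, and that of the 10 other naive-state genes was 4.21, against 4.99 to 5.28. A total of 69 groups of lines was looked at in this way. If these looks were independent, chance would give about 1 in 20, or 3.45, which is close to the number found. The values are not independent, since they share 1 line that was pointed out with its values known. The count therefore cannot say whether AN6 is unusual.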

How the results depend on the processing

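Differences between AN6 and the median of the other AN P lines kept their sign for all 10 factors with a pseudocount of 0.1, quantile normalization, median-ratio scaling and, chosen after seeing the data, without each of the other AN P lines. With the pseudocount of 0.1, Prdm14 differed by -0.92. In the group comparisons, 0 factors passed an adjusted p under 0.05 in any alternative. At an unadjusted p under 0.05, 792 genes passed for AN F against AN P, 1025 for AI F against AI P, 464 for AN against AI and 2194 for the interaction, with 1 factor, Klf2, in the second and in the last. With only the newly derived AI lines, AN against AI gave 9 genes, and Zfp42 (0.17), Prdm14 (0.26) and Nr5a2 (0.15) changed sign, as did Klf5 (0.055), Zfp42 (0.15), Prdm14 (0.12) and Nr5a2 (0.10) with passage number as a term. When each line was left out in turn, 0 to 1 genes passed for AN F against AN P, 0 to 5 (without GS9) for AI F against AI P, 0 to 1 for AN against AI and 0 to 651 for the interaction, the last without AI9. For AN F against AN P the sign changed for Klf2 (-0.057 to 0.24), Esrrb (-0.057 to 0.28), Tbx3 (-0.029 to 0.33), Zfp42 (-0.0081 to 0.30), Prdm14 (-0.075 to 0.17) and Nr0b1 (-0.015 to 0.37). For AI F against AI P it changed for Klf5 (-0.19 to 0.24), Tfcp2l1 (-0.048 to 0.40), Esrrb (-0.28 to 0.021) and Prdm14 (-0.54 to 0.022). For AN against AI it changed for Klf2 (-0.10 to 0.13), Klf5 (-0.16 to 0.056), Tfcp2l1 (-0.11 to 0.12), Prdm14 (-0.16 to 0.13), Nr5a2 (-0.15 to 0.064), Zfp42 (-0.35 to 0.097) and Nr0b1 (-0.030 to 0.36), and for the interaction for Tfcp2l1 (-0.34 to 0.11) and Nr0b1 (-0.26 to 0.51). The causes were not tested. No paired analysis was possible because the lines of different groups share no number that pairs them. The number of lines per group and the unknown read counts limit the precision, most of all for Prdm14.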
